A study of Homo sapiens with 12 samples.

Results

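CHRF288-11 is an established human megakaryoblastic cell line, a leukaemic line arrested early on the path from the blood progenitor to the megakaryocyte, the cell that sheds platelets. The RNA described here is that of the untreated cells, the starting point before any Wnt protein was added: 3 of the 12 arrays of the series, those titled Untreated 1, 2 and 3. The other 9 arrays, in 3 groups treated with Wnt3a, Wnt5a or both proteins, were not used. The untreated cells were grown in RPMI 1640 medium with fetal calf serum, were held in serum-free medium for 16 h, carry the time label 8 h, and received no added Wnt protein. The labels do not say whether a vehicle was given, nor whether the 8 h were spent without serum on top of the 16 h. The values describe a serum-starved leukaemic line and not a normal megakaryocyte. The series names the 3 arrays biological replicates.

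Total RNA was amplified and hybridised to Illumina BeadChips that carry 48803 probes. Each probe has a detection score on each array that runs from 0 to 1 and is 1 for probes brighter than all negative controls. A probe was taken as expressed where its score was above 0.99 on all 3 arrays, as not detected where it was below 0.95 on all 3, and as indeterminate otherwise. By this rule 12337 probes, 25.3% of all, were expressed, 27590 probes, 56.5%, were not detected and 8876 were indeterminate. A gene was taken as expressed with at least 1 expressed probe and as not detected only if every probe of it was not detected. Of 20486 named genes, 9187 were expressed, which is 44.8%, and 7843 were not detected, which is 38.3%. These shares are the background against which each gene group below is read. No groups were compared and no test was made, so all statements are descriptions of these 3 arrays.

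Megakaryocytes are made from blood stem cells under the hormone thrombopoietin, by transcription factors of the GATA, RUNX, ETS and NF-E2 families that switch on the genes of platelet receptors, granules and the cytoskeleton. Wnt proteins are secreted lipid-bearing ligands that bind Frizzled receptors. With the co-receptors LRP5 or LRP6 they stop the destruction of beta-catenin, which then works with TCF and LEF factors in the nucleus, and with other co-receptors such as ROR2 and RYK they act on the cytoskeleton and on calcium without beta-catenin. Which of these parts a cell transcribes limits which of these branches it can use.

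The 4 genes that mark the line are ITGA2B and GP9, the alpha chain of the platelet fibrinogen receptor and a subunit of the von Willebrand factor receptor, and GATA1 and NFE2, transcription factors of the megakaryocyte. In humans both receptor genes are known targets of GATA1 and of ETS factors, whose core motifs are GATA and GGAA, and their upstream sequences are shown here for that reason, with the upstream sequence of GATA1. Each line gives the 250 bases before the annotated start, 5′ to 3′ on the gene's own strand, from RefSeq on GRCh38.p14, for ITGA2B (chr17:44389650-44389899, minus strand), GP9 (chr3:129060529-129060778, plus strand) and GATA1 (chrX:48786340-48786589, plus strand). Capitals mark GATA or its reverse complement TATC, and GGAA or its reverse complement TTCC.
ITGA2B: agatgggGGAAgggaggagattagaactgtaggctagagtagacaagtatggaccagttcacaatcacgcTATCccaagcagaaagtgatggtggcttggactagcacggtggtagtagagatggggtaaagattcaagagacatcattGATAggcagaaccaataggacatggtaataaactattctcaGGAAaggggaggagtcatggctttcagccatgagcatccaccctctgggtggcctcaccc
GP9: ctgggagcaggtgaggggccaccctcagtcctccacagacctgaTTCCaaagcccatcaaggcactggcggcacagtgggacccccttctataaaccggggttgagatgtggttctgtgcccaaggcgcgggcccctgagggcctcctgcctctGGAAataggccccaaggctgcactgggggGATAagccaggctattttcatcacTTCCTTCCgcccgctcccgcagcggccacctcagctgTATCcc
GATA1: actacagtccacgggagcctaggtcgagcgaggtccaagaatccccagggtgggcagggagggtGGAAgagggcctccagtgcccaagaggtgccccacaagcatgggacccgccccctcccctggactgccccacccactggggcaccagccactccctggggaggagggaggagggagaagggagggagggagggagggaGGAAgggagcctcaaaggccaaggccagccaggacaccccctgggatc
The windows of ITGA2B and GP9 each hold 2 GATA matches, and that of GATA1 holds 0. GGAA matches number 2 in ITGA2B, 4 in GP9 and 2 in GATA1. GATA on either strand occurs in 46.5% of all 27305 such windows and GGAA in 92.8%, so a match is common. GATA and GGAA matches share no letters, while GATATC would count as a GATA match on each strand. Of the 24 expressed genes of platelet surface receptors 15 had a window, and 66.7% of these windows hold GATA. The share was 35.0% in windows of all 7412 expressed genes that have one and 47.7% in those of 5520 not detected genes. GGAA did not set the receptors apart, with 93.3% beside 93.4% and 91.9%. The 15 windows are few, and no test was made. No binding was measured here, and a match is not a binding site.

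All 4 markers were expressed, as the plot of probe signals by call shows. Signals are given from here on as background-corrected, quantile-normalized log2 values for Untreated 1, 2 and 3 in that order, so that a step of 1 is a 2-fold step. The GP9 probe gave 13.14, 13 and 13.19 (mean 13.11 ± 0.10 SD, n = 3), brighter than 99.4% of all probes. NFE2 gave 12.38, 12.13 and 12.42 (mean 12.31 ± 0.15 SD, n = 3) and lay at percentile 98.9. GATA1 gave 10.34, 10.16 and 10.25 (mean 10.25 ± 0.09 SD, n = 3) at percentile 95.7. The markers thus stood well inside the expressed range on each array, and no array lacked any of them. ITGA2B was the dimmest of the 4 at 9.01, 8.81 and 8.72 (mean 8.85 ± 0.15 SD, n = 3), percentile 90.7. Probes differ in how strongly they bind their target, so a percentile describes a probe's brightness and is not used here to order genes by their amount of RNA.

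**Figure D1:**
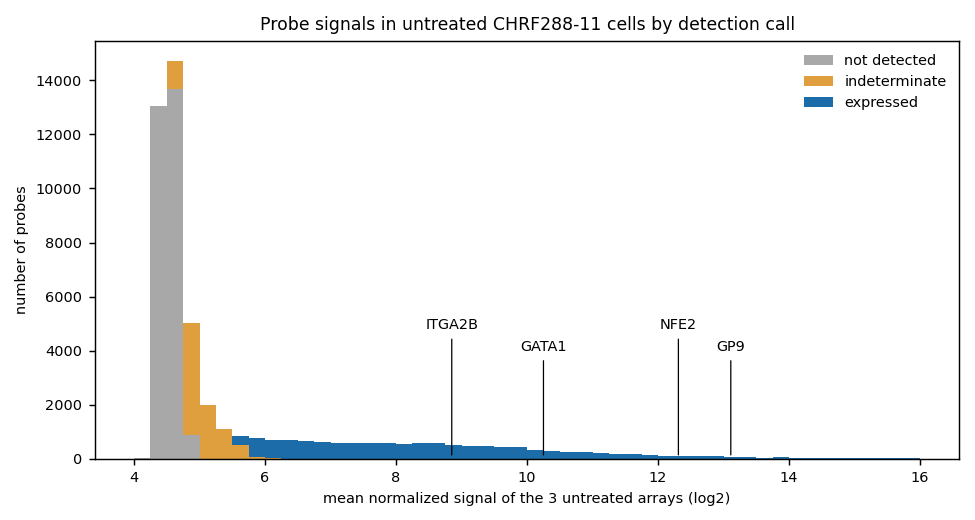
Number of probes (vertical axis) by mean normalized log2 signal over the 3 untreated arrays (horizontal axis, bins of 0.25), stacked by detection call, with the position of the 4 marker genes. Not detected probes have a median of 4.51, indeterminate probes of 4.94 and expressed probes of 8.09, and all 4 markers lie among the expressed probes.

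The 3 arrays were close to each other. Deposited signals averaged 315.5, 378.3 and 373.5 on Untreated 1, 2 and 3, and 12511, 13363 and 13674 probes scored above 0.99. Untreated 1 was the dimmest array and the only one of the 3 on the second BeadChip, so its chip and its sample cannot be told apart. Over all probes Pearson's r was 0.9948 between Untreated 1 and 2, 0.9954 between Untreated 1 and 3 and 0.9958 between Untreated 2 and 3, which shared a chip. Without Untreated 1 the expressed probes numbered 13044 and the expressed genes 9596. The median SD of an expressed probe over the arrays was 0.099 on the log2 scale, 0.126 over the dimmest 3085 expressed probes and 0.079 over the brightest 3084. The number of arrays limits the precision, and differences under about this spread carry no order.

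The transcription factors of the megakaryocyte programme were nearly all present. Of 30 such genes on the array, 27 were expressed (90%, beside 44.8% of all genes), with a median percentile of 93.3 beside 70.4 over all genes. The brightest was LYL1, a basic helix-loop-helix factor of blood progenitors, at 14.56, 14.48 and 14.58 (mean 14.54 ± 0.06 SD, n = 3), and its probe ranked 44 among the expressed genes. MYB, which keeps progenitors dividing, gave 11.76, 11.72 and 11.81 (mean 11.76 ± 0.04 SD, n = 3). LMO2, the bridge of the GATA and TAL1 complex, gave 10.88, 11.06 and 10.91 (mean 10.95 ± 0.10 SD, n = 3). GFI1B, a repressor needed for platelet production, stood at 10.59, 10.61 and 10.60, and ZFPM1, the cofactor FOG1 of GATA1, at 10.12, 10.27 and 10.11. Both were thus on at levels that hardly differed between arrays. RUNX1 gave 9.57, 9.55 and 9.60 (mean 9.57 ± 0.03 SD, n = 3) from 1 of its 3 probes, and its partner CBFB gave 9.89, 10.09 and 9.72 (mean 9.90 ± 0.19 SD, n = 3).

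Some factors of the same programme were dim, and so was KLF1 of the red cell programme. FLI1, an ETS factor of late platelet genes, gave 7.52, 7.53 and 7.48 (mean 7.51 ± 0.02 SD, n = 3), and 1 of its 2 probes was expressed. TAL1, the partner of LMO2, gave 7.14, 6.96 and 6.85 (mean 6.98 ± 0.15 SD, n = 3). KLF1, which drives the red cell programme, gave 6.07, 6.24 and 5.98 (mean 6.10 ± 0.13 SD, n = 3), close to the lower limit of the expressed range. The factors of other lineages were not silent either. SPI1, the myeloid factor PU.1, gave 9.49, 9.63 and 9.46 (mean 9.53 ± 0.09 SD, n = 3), and GATA2, an early progenitor and mast cell factor, gave 10.20, 9.95 and 10.07 (mean 10.07 ± 0.13 SD, n = 3). ERG was indeterminate, with scores from 0.98551 to 0.99473 on its brightest probe. LDB1, the scaffold of the LMO2 complex, and MAFK, a partner of NF-E2, were not detected, each on the strength of 1 probe, whereas the related MAFG was expressed on all 3 of its probes.

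The platelet surface was largely transcribed, with gaps. Of 32 receptor genes 24 were expressed (75.0%), 4 were indeterminate and 4 were not detected. F2R, the thrombin receptor PAR1, gave 15.09, 15.03 and 15.03 (mean 15.05 ± 0.03 SD, n = 3) and ranked 16 among all expressed genes, just below abundant cytoskeletal and translation genes. GP1BB, another subunit of the von Willebrand factor receptor, gave 13.72, 13.51 and 13.58 (mean 13.60 ± 0.11 SD, n = 3). Both were thus among the brightest probes of the array. GP6, the collagen receptor, gave 10.28, 9.75 and 9.92 (mean 9.98 ± 0.27 SD, n = 3), somewhat higher on Untreated 1 than on the others, and its signalling partner FCER1G gave 11.21, 11.06 and 11.06 (mean 11.11 ± 0.09 SD, n = 3). SELP, which encodes P-selectin, gave 9.79, 9.84 and 9.93 (mean 9.85 ± 0.07 SD, n = 3). The von Willebrand factor receptor was complete, since GP1BA gave 9.91, 9.79 and 9.81 (mean 9.84 ± 0.06 SD, n = 3) and GP5, its remaining chain and the dimmest expressed receptor, gave 6.96, 6.94 and 6.79 (mean 6.90 ± 0.09 SD, n = 3).

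ITGB3, the beta chain that pairs with ITGA2B, was expressed at 7.79, 7.90 and 7.81 (mean 7.83 ± 0.06 SD, n = 3). ITGA2, the alpha chain of a collagen-binding integrin, was indeterminate at 5.62, 5.50 and 5.96, as were ITGA6, JAM3 and ADRA2A. The ADP receptors split. P2RY1 gave 7.21, 7.22 and 7.35 (mean 7.26 ± 0.08 SD, n = 3) on both of its probes, while P2RY12, the target of the clopidogrel class of drugs, gave 4.63, 4.52 and 4.58 and was not detected. Also not detected were CLEC1B, the podoplanin receptor, CD40LG and CD36, the thrombospondin receptor, the last on all 3 of its probes. Genes of mature platelets were therefore partly missing from an otherwise well populated list. CD63, a protein of granule membranes, gave 9.05, 8.18 and 8.38 (mean 8.54 ± 0.46 SD, n = 3) and was the member with the largest spread over arrays among the expressed genes of the lineage, Wnt, signalling, metabolic and cell state lists, higher on Untreated 1 than on the other pair.

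Granule and thrombosis genes showed the same split. Of 35 genes 24 were expressed (68.6%), 9 were indeterminate and 2 were not detected. TIMP1, an inhibitor of matrix proteases stored in platelets, gave 14.05, 14.05 and 14.09 (mean 14.06 ± 0.02 SD, n = 3). PTGS1, the cyclooxygenase that aspirin blocks, gave 12.29, 12.46 and 12.56 (mean 12.43 ± 0.13 SD, n = 3), and TBXAS1, which turns its product into thromboxane, gave 9.93, 10.14 and 10.11 (mean 10.06 ± 0.11 SD, n = 3). THBS1, the granule protein thrombospondin, gave 11.61, 11.68 and 11.65 (mean 11.65 ± 0.04 SD, n = 3). RNA of alpha-granule proteins that the megakaryocyte itself makes was thus seen in part. VWF, the carrier of clotting factor VIII, gave 9.16, 8.80 and 9.24 (mean 9.06 ± 0.23 SD, n = 3). MMRN1, the factor V carrier multimerin, gave 11.73, 11.89 and 11.90 (mean 11.84 ± 0.10 SD, n = 3). SRGN, the proteoglycan that packs granules, gave 12.42, 12.25 and 12.25 (mean 12.31 ± 0.10 SD, n = 3).

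Several alpha-granule genes were not seen. PF4, among the most abundant alpha-granule chemokines of platelets, gave 4.54, 4.37 and 4.44, with scores of 0.70751, 0.22134 and 0.44796, and was not detected. PPBP, the precursor of NAP-2, was indeterminate at 4.52, 5.04 and 4.75. Its value on Untreated 2 lay above 4.87, the highest mean of any not detected probe. CLU was not detected on any of its 3 probes. F13A1 and F5, which encode clotting factors, PF4V1 and TREML1 were indeterminate. NBEAL2, a gene needed for alpha granules, was expressed at 8.74, 8.71 and 8.63 (mean 8.69 ± 0.06 SD, n = 3).

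The cytoskeleton that builds proplatelets was almost complete, with 28 of 30 genes expressed (93.3%), 2 indeterminate and 0 not detected. TUBB1, the beta-tubulin of the platelet's microtubule ring, gave 11.18, 11.21 and 11.27 (mean 11.22 ± 0.05 SD, n = 3). MYH9, the non-muscle myosin mutated in giant-platelet disease, gave 13.04, 13.06 and 13.02 (mean 13.04 ± 0.02 SD, n = 3), whereas the light chain MYL9 gave 6.14, 6.03 and 6.29 (mean 6.15 ± 0.13 SD, n = 3) and was the dimmest expressed member. TMSB4X, which holds actin monomers, gave 15.51, 15.35 and 15.35 (mean 15.40 ± 0.09 SD, n = 3) and PFN1, which feeds them to filaments, gave 15.12, 15.21 and 15.27 (mean 15.20 ± 0.07 SD, n = 3), both among the 14 brightest genes. The expressed call of TMSB4X and of VASP rests on a probe that carries the gene's name only in the deposited file. FLNA, which anchors the von Willebrand factor receptor to actin, was indeterminate at 5.19, 5.15 and 5.06 on its only probe.

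**Figure D2:**
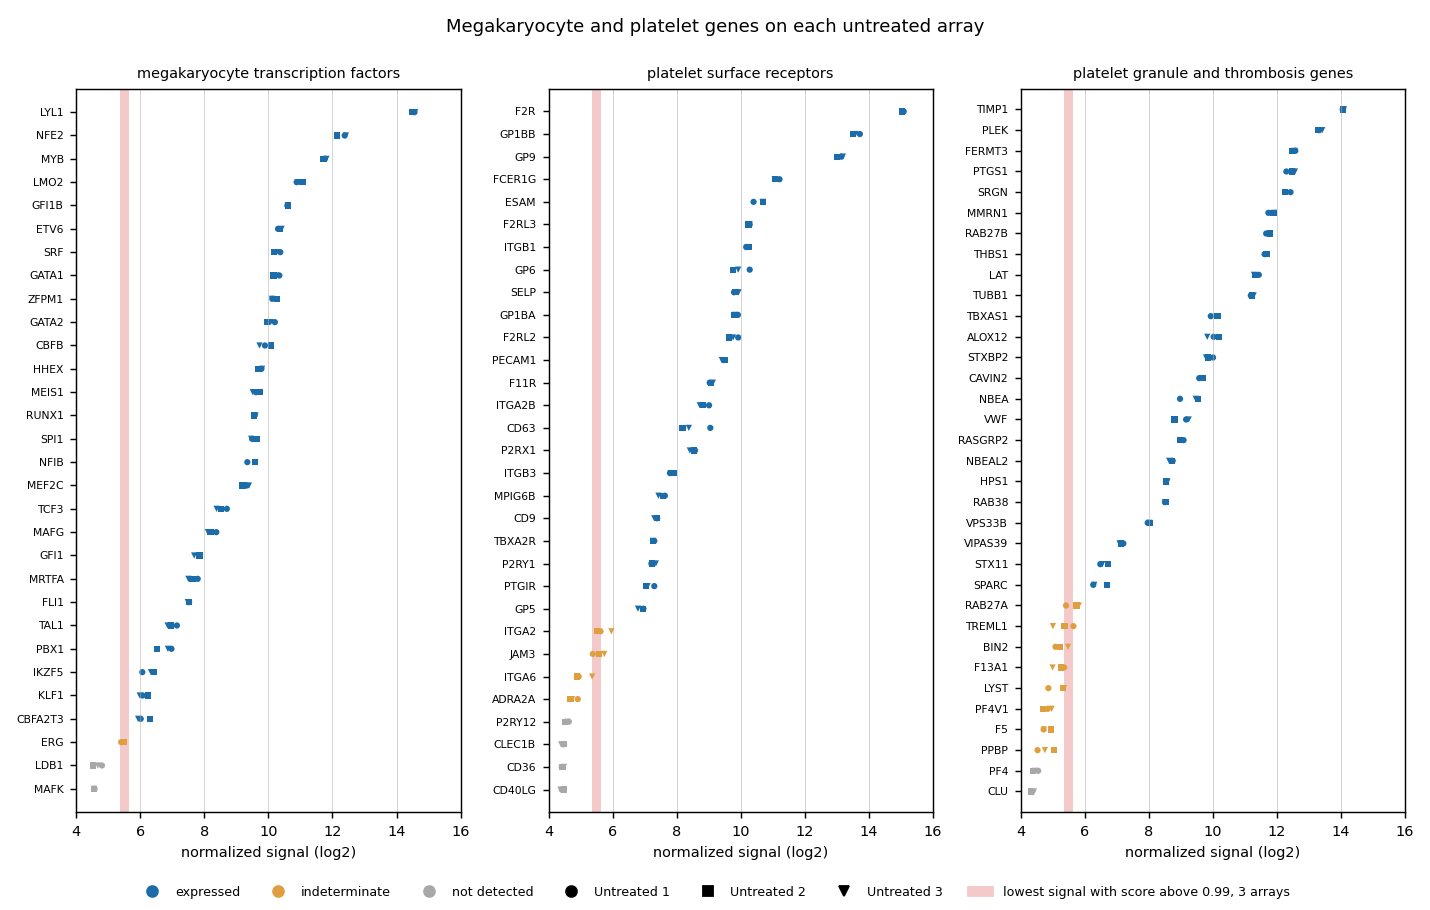
Normalized log2 signal (horizontal axes) of each gene's brightest expressed probe, or brightest probe where none was expressed, for transcription factors, platelet surface receptors and granule and thrombosis genes, with a few members not drawn. Circles, squares and triangles are Untreated 1, 2 and 3, colours give the call, and the band spans the lowest signals scored above 0.99 on the 3 arrays (5.35 to 5.63). The receptors F2R, GP1BB and GP9 lie far to the right of the band, and P2RY12, CLEC1B, CD36, PF4 and CLU lie to its left on all 3 arrays.

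Genes of the neighbouring red cell lineage were mixed. Of 34 genes 20 were expressed (58.8%), 8 were indeterminate and 6 were not detected. RHAG, the Rh-associated glycoprotein, gave 12.97, 13.18 and 13.02 (mean 13.06 ± 0.11 SD, n = 3). HBD, the delta-globin gene, gave 12.79, 12.77 and 12.88 (mean 12.82 ± 0.06 SD, n = 3). KEL, the Kell blood group protein, gave 10.24, 10.02 and 10.07 (mean 10.11 ± 0.11 SD, n = 3). EPOR, the erythropoietin receptor, gave 9.21, 9.46 and 9.30 (mean 9.32 ± 0.13 SD, n = 3). SLC4A1 (band 3), a defining protein of the mature red cell, had a highest score of 0.56653 and was not detected. HBA2 was not detected and HBA1 was indeterminate, as was the alpha-globin chaperone AHSP. Among the beta-like globins HBG2 gave 8.66, 8.48 and 8.44 (mean 8.53 ± 0.11 SD, n = 3), HBE1, the embryonic form, gave 7.92, 7.81 and 7.85 and HBB, the adult form, gave 7.57, 7.62 and 7.61. HBG1 and HBG2, and HBA1 and HBA2, are near-identical pairs whose probes may not tell the copies apart.

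Mast cell and basophil genes were expressed in 7 of 13 cases (53.8%). HDC, the enzyme that makes histamine, gave 12.55, 12.58 and 12.60 (mean 12.57 ± 0.03 SD, n = 3), and FCER1A, the alpha chain of the high-affinity IgE receptor, gave 11.49, 11.67 and 11.57 (mean 11.58 ± 0.09 SD, n = 3). KIT, the stem cell factor receptor, gave 11.16, 11.35 and 11.38 (mean 11.30 ± 0.12 SD, n = 3), and TPSAB1, a tryptase gene with near-identical copies, gave 7.87, 7.53 and 7.34 (mean 7.58 ± 0.27 SD, n = 3). The set was incomplete. MS4A2, the beta chain of the same IgE receptor, CMA1, which encodes chymase, HPGDS and ENPP3 were not detected, and CPA3, the mast cell carboxypeptidase, was indeterminate.

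Stem and progenitor genes were expressed in 17 of 27 cases (63.0%). CD34, the surface marker of progenitors, gave 13, 13.07 and 13.07 (mean 13.05 ± 0.04 SD, n = 3) with 2 of its 5 probes expressed. ANGPT1, a ligand made by blood stem cells, gave 11.85, 11.83 and 11.98 (mean 11.89 ± 0.08 SD, n = 3). The fetal RNA-binding factors were also present, as IGF2BP3 gave 10.50, 10.74 and 10.74 (mean 10.66 ± 0.14 SD, n = 3) and LIN28B, the let-7 blocker of fetal blood cells, gave 8.38, 8.32 and 8.57 (mean 8.42 ± 0.13 SD, n = 3). FLT3, PROM1 (CD133), THY1 and CD38 were not detected, the last with a highest score of only 0.04348. HOXA9 and HLF were indeterminate.

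Granulocyte and monocyte genes were expressed in 11 of 36 cases (30.6%), less than the 44.8% of all genes. CEBPB, a myeloid and stress factor, gave 12.13, 11.87 and 11.99 (mean 11.99 ± 0.13 SD, n = 3). CD33, a myeloid surface lectin, gave 11.40, 11.26 and 11.29 (mean 11.32 ± 0.07 SD, n = 3). CSF2RA, the alpha chain of the GM-CSF receptor, gave 10.44, 10.23 and 10.46 (mean 10.37 ± 0.13 SD, n = 3). CTSG, the neutrophil protease cathepsin G, gave 9.92, 9.91 and 9.84 (mean 9.89 ± 0.04 SD, n = 3), yet MPO, ELANE and PRTN3, which are stored beside it in neutrophil granules, were not detected. The calcium-binding proteins S100A8 and S100A9, which are abundant in neutrophils and monocytes, were not detected either. CD14 and CEBPA were indeterminate.

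Lymphoid genes were seen in part. Of 25 T and NK cell genes 4 were expressed (16.0%) and 16 were not detected, the CD3 chain CD3D and both CD8 chains among the latter. The 4 expressed were CD2, PRF1 (perforin), NKG7 and CD7, and CD2 gave 8.94, 9.04 and 8.82 (mean 8.93 ± 0.11 SD, n = 3). Of 22 B and plasma cell genes 9 were expressed (40.9%). HLA-DRA, a chain of the class II antigen-presenting molecule, gave 12.69, 13.02 and 12.81 (mean 12.84 ± 0.16 SD, n = 3) and its chaperone CD74 gave 11.72, 11.64 and 11.57 (mean 11.64 ± 0.07 SD, n = 3), neither being restricted to B cells. CD79B, a signalling chain of the B cell receptor, gave 9.62, 9.44 and 9.58 (mean 9.55 ± 0.09 SD, n = 3) on 3 of 3 probes, but PAX5, which defines the B cell, CD22 and VPREB1 were not detected and MS4A1 (CD20) was indeterminate.

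Of 25 endothelial, fibroblast and epithelial genes 7 were expressed (28.0%) and 14 were not detected. MUC1, a mucin, gave 10.23, 10.10 and 10.41 (mean 10.25 ± 0.15 SD, n = 3). ACTA2, smooth muscle actin, gave 10.19, 10.05 and 10.18 (mean 10.14 ± 0.08 SD, n = 3). PDGFRB, a receptor of platelet-derived growth factor, gave 8.98, 8.87 and 8.85 (mean 8.90 ± 0.07 SD, n = 3). The collagen genes COL1A1 and COL1A2, the proteoglycans DCN and LUM, and KDR, the endothelial VEGF receptor, were not detected. These 5 genes thus stood below the detection threshold on all 3 arrays. TIE1 and TEK, receptors shared by endothelium and blood progenitors, were expressed at 7.42 ± 0.05 and 6.95 ± 0.21 (mean ± SD, n = 3).

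**Figure D3:**
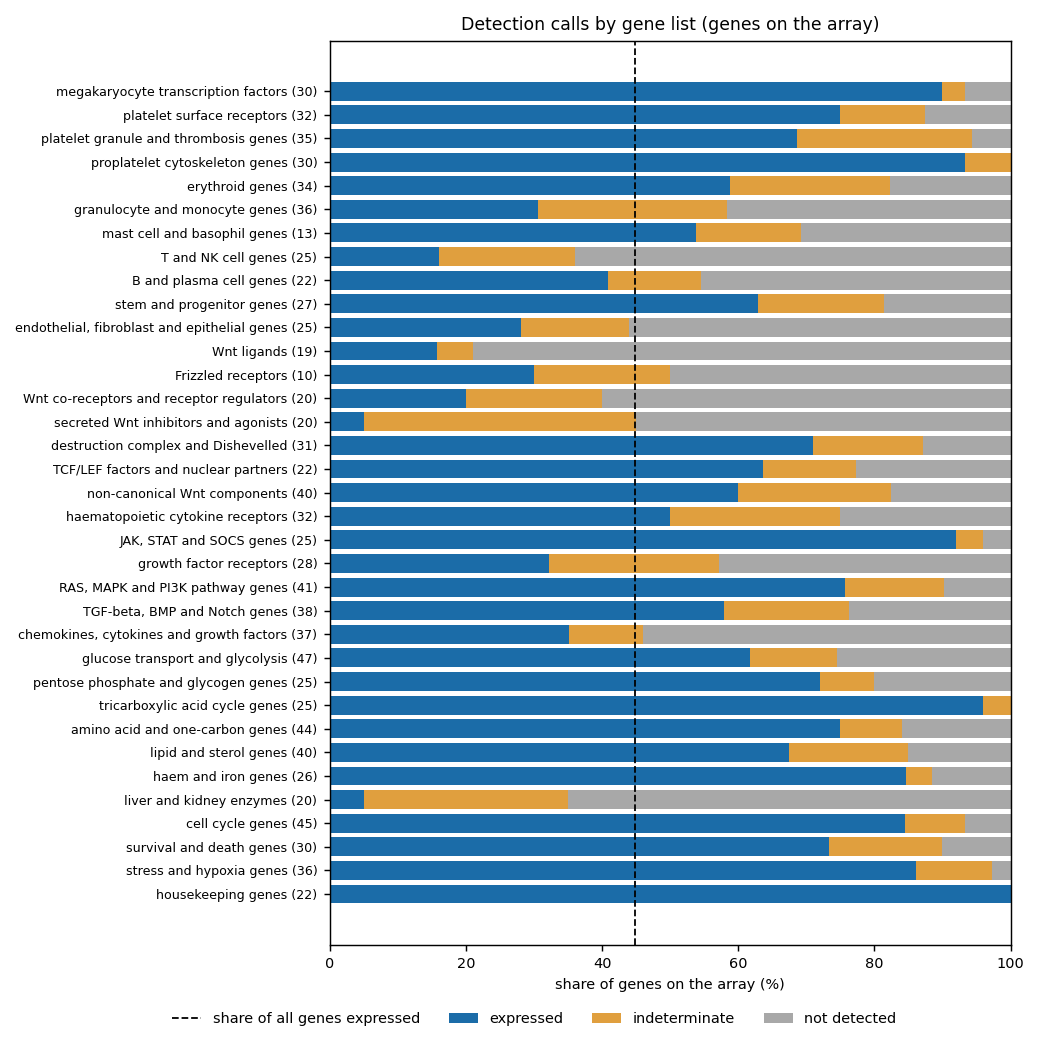
Share of genes on the array (horizontal axis, %) that were expressed, indeterminate or not detected in each gene list, with the number of genes in parentheses and a dashed line at the 44.8% of all genes that were expressed. Proplatelet cytoskeleton and tricarboxylic acid cycle genes lie far above the line, and Wnt ligands, secreted Wnt inhibitors and agonists, T and NK cell genes and liver and kidney enzymes lie far below it.

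Of the listed Wnt genes, a smaller share was expressed among those of the cell surface than among those inside the cell. Of 10 Frizzled receptors 3 were expressed (30%, beside 44.8% of all genes), 2 were indeterminate and 5 were not detected. The Frizzled list is short, and its count changes with the score threshold. FZD2 gave 8.31, 8.34 and 8.16 (mean 8.27 ± 0.09 SD, n = 3) and was the brightest. FZD6, which acts in planar cell polarity, gave 7.45, 7.81 and 7.78 (mean 7.68 ± 0.20 SD, n = 3), lowest on Untreated 1. FZD7 gave 6.76, 6.57 and 6.85 (mean 6.73 ± 0.14 SD, n = 3), with both of its probes expressed. FZD1, at 5.72, 5.28 and 5.38, and FZD4, at 4.95, 5.27 and 5.17, straddled or lay below the lowest signals scored above 0.99, while FZD3, FZD5, FZD8, FZD9 and FZD10 were not detected on any array.

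Of 20 co-receptors and receptor regulators only 4 were expressed (20%). RYK, a co-receptor used by WNT5A, gave 9.02, 8.97 and 9.19 (mean 9.06 ± 0.11 SD, n = 3) on all 3 of its probes. LRP5, a co-receptor of the beta-catenin branch, gave 7.29, 7.31 and 7.20 (mean 7.27 ± 0.06 SD, n = 3), with 1 of its 2 probes expressed, while its close relative LRP6 was indeterminate at 4.82, 4.95 and 4.81. The untreated cells thus gave a clear signal for a co-receptor of each branch. MUSK, a muscle kinase with a Frizzled-like domain, gave 6.66, 6.26 and 6.69 (mean 6.54 ± 0.24 SD, n = 3) and KREMEN1, a receptor of the inhibitor DKK1, gave 5.99, 6.18 and 6.09 (mean 6.09 ± 0.09 SD, n = 3). ROR1, ROR2 and PTK7, co-receptors outside the beta-catenin branch, were not detected. The R-spondin receptors LGR4, LGR5 and LGR6 and the ligase RNF43, which removes Frizzled from the surface, were not detected either, and the related ligase ZNRF3 was indeterminate. Without Untreated 1 the expressed members of this list numbered 6 in place of 4.

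The cells transcribed few Wnt genes of their own. Of 19 ligands 3 were expressed (15.8%) and 15 were not detected (78.9%, beside 38.3% of all genes). WNT5A, which is also a ligand given to treated groups, gave 8.10, 8.09 and 7.98 (mean 8.06 ± 0.07 SD, n = 3), percentile 87.2. WNT3 gave 6.41, 6.35 and 6.64 (mean 6.47 ± 0.16 SD, n = 3). WNT16 gave 5.79, 5.47 and 5.66 (mean 5.64 ± 0.16 SD, n = 3) on 1 of its 2 probes, close to the lowest signals scored above 0.99, which lay between 5.35 and 5.63 on the 3 arrays. WNT3A, the other ligand given to the treated groups, gave 4.35, 4.33 and 4.48 and was not detected. WNT2B was indeterminate. Of 20 secreted inhibitors and agonists 1 was expressed. That gene was RSPO3, an R-spondin that amplifies Wnt signals, which gave 9.30, 9.38 and 9.29 (mean 9.32 ± 0.05 SD, n = 3), far above every other member of the list. DKK1 and DKK2 were indeterminate and WIF1, FRZB and 3 SFRP genes, all Wnt inhibitors, were not detected. PORCN, the enzyme that attaches the lipid to Wnt proteins, was indeterminate and had the largest spread of the Wnt lists, with 4.80, 5.58 and 4.64. WLS, the carrier that takes Wnt proteins to the surface, was indeterminate. Of its 5 probes 4 were not detected, and the other was itself indeterminate.

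Inside the cell 22 of 31 genes of the destruction complex, Dishevelled and their regulators were expressed (71.0%). CTNNB1, which encodes beta-catenin, gave 7.17, 6.97 and 7.05 (mean 7.06 ± 0.10 SD, n = 3), with 2 of its 7 probes expressed. AXIN1, the scaffold of the complex, gave 9.93, 10.01 and 9.90 (mean 9.95 ± 0.06 SD, n = 3). Of the kinases that mark beta-catenin for destruction, GSK3B gave 8.23, 8.02 and 8.24 and CSNK1A1 gave 8.18, 8.03 and 8.11, while GSK3A was indeterminate at 4.88, 4.96 and 5.09. DVL2 and DVL3, which carry the signal from Frizzled, gave 8.43 ± 0.13 and 7.06 ± 0.02 (mean ± SD, n = 3). DVL1 was indeterminate, with 3 of its 4 probes not detected and the other itself indeterminate. APC, the other scaffold, gave 4.41, 4.53 and 4.33 on its only probe and was not detected. AXIN2, a widely used target gene and feedback inhibitor of the beta-catenin branch, gave 4.35, 4.43 and 4.44 with scores of 0.15283, 0.42556 and 0.45323, so its probe was at background in every untreated sample. NKD1, another feedback target, was indeterminate.

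In the nucleus LEF1 was the TCF/LEF factor that was clearly expressed. It gave 9.26, 9.38 and 9.22 (mean 9.29 ± 0.09 SD, n = 3) with both of its probes expressed. TCF7 was not detected on 6 probes nor TCF7L1 on 1, and TCF7L2 was indeterminate at 4.93, 4.70 and 4.59. The full-length TLE corepressors, which bind TCF/LEF factors when beta-catenin is low, were seen in part. TLE4 gave 8.41, 8.47 and 8.31 (mean 8.40 ± 0.08 SD, n = 3). TLE5, a shorter relative that is not one of them, gave 10.36, 10.30 and 10.22. CTBP1, another corepressor, gave 10.03, 10.08 and 10.04. TLE3 was expressed near the detection limit at 6.13, 5.88 and 5.92, TLE2 was indeterminate and TLE1 was not detected. In all, 14 of 22 genes of this list were expressed (63.6%).

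Components of the branches without beta-catenin were expressed in 24 of 40 cases (60.0%). The small GTPases were bright, with RHOA at 12.67 ± 0.03 and RAC1 at 11.88 ± 0.10, and ROCK2, the kinase that RHOA activates, gave 13.99, 13.74 and 13.81 (mean 13.85 ± 0.13 SD, n = 3). PRKCB, a calcium-dependent kinase, gave 11.78, 11.66 and 11.82 (mean 11.75 ± 0.08 SD, n = 3). Planar polarity genes were patchy. CELSR3 gave 9.67 ± 0.09 and PRICKLE1 8.90 ± 0.10 (mean ± SD, n = 3), while VANGL1, VANGL2, CELSR1 and CELSR2 were indeterminate. DAAM1, which links Dishevelled to RHOA, gave 6.88, 6.99 and 6.79 (mean 6.89 ± 0.10 SD, n = 3).

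**Figure D4:**
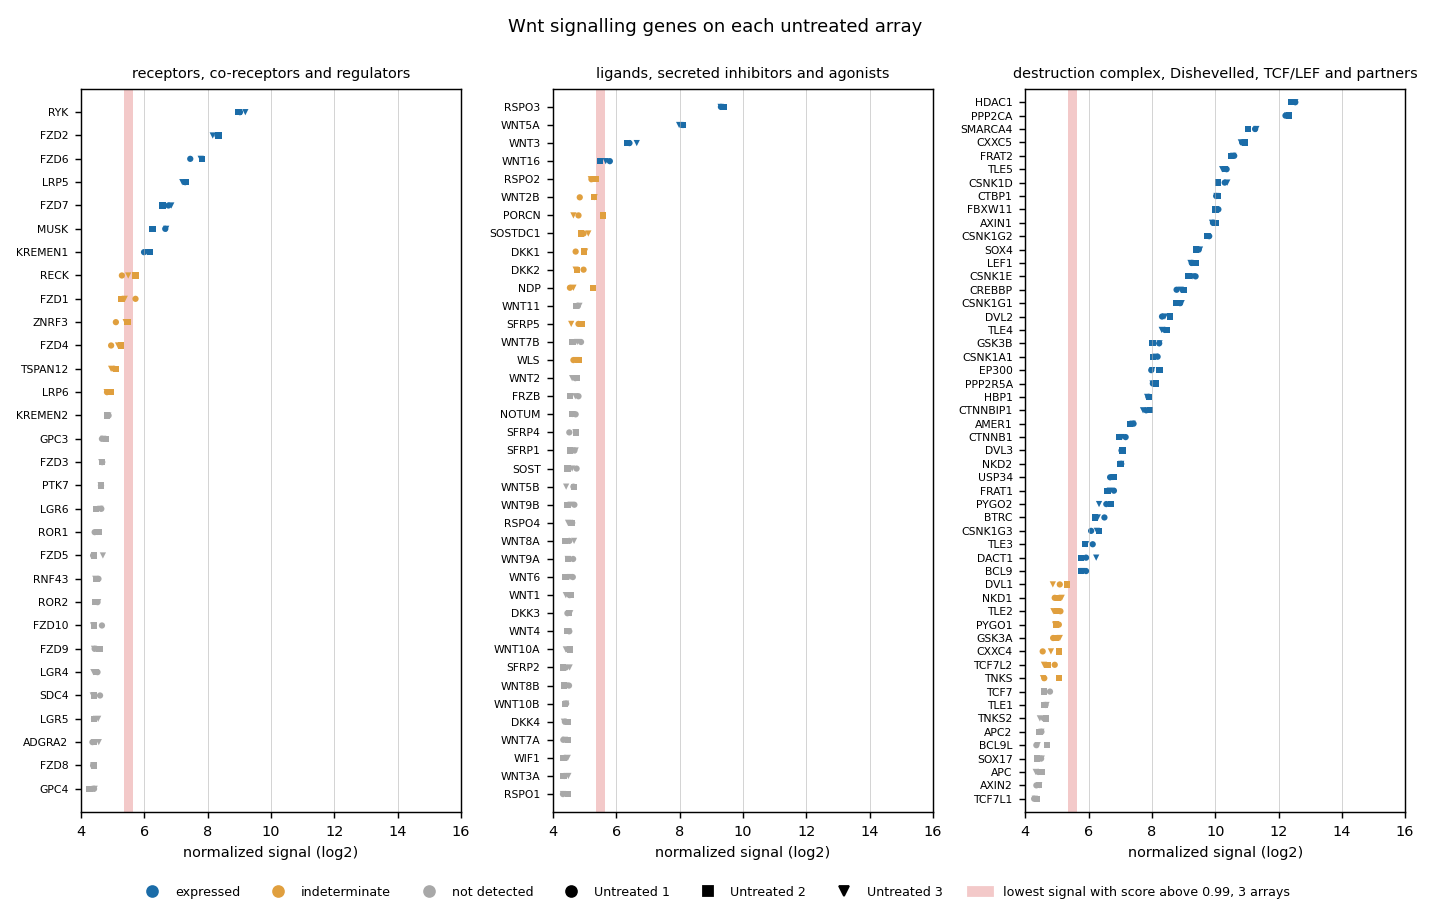
Normalized log2 signal (horizontal axes) of Wnt receptors and co-receptors, ligands and secreted regulators, and intracellular components on the 3 untreated arrays. Symbols, colours and the band (5.35 to 5.63) are as in the plot of megakaryocyte and platelet genes. Only 7 of the 30 receptor genes and 4 of the 39 genes in the middle panel are expressed, whereas most genes in the right panel lie to the right of the band, and AXIN2, APC, TCF7 and TCF7L1 lie to its left.

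Of 32 haematopoietic cytokine receptors 16 were expressed (50%), close to the 44.8% of all genes. Beside KIT and EPOR, IL11RA, the receptor of the platelet-raising cytokine interleukin 11, gave 8.80, 8.77 and 8.83 (mean 8.80 ± 0.03 SD, n = 3), and its signalling partner IL6ST gave 7.36, 7.42 and 7.27 (mean 7.35 ± 0.08 SD, n = 3). The GM-CSF receptor was seen in part. CSF2RA was expressed as given above, whereas CSF2RB, the beta chain needed for its signal, was not detected at 4.75, 4.55 and 4.38, and IL3RA, which shares that beta chain, was indeterminate. CXCR4, the chemokine receptor that guides megakaryocytes in the marrow, was indeterminate at 5.58, 5.37 and 5.47, on the edge of detection on each array.

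The pathway downstream was nearly complete: 23 of 25 JAK, STAT and SOCS genes were expressed (92.0%). STAT5A and STAT5B, which act below cytokine receptors, gave 10.97 ± 0.13 and 9.11 ± 0.07 (mean ± SD, n = 3). JAK2, a kinase bound to cytokine receptors, gave 6.67, 7.06 and 6.86 (mean 6.86 ± 0.20 SD, n = 3), lowest on Untreated 1. The brakes on this pathway were on as well. SH2B3, the inhibitor LNK, gave 9.77, 9.65 and 9.70 (mean 9.71 ± 0.06 SD, n = 3), and CISH and SOCS3, feedback targets of STAT factors, gave 6.54 ± 0.02 and 5.98 ± 0.24. JAK3 was indeterminate and SOCS6 was not detected.

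Growth factor receptors outside the blood family were sparse, with 9 of 28 expressed (32.1%) and 12 not detected (42.9%). IGF2R gave 9.66, 9.64 and 9.77 (mean 9.69 ± 0.07 SD, n = 3). EGFR, MET, IGF1R and RET, receptor kinases common in solid tissues, were not detected, and INSR, the insulin receptor, was indeterminate. The shared intracellular machinery was there all the same, since 31 of 41 genes of the RAS, MAPK and PI3K pathways were expressed (75.6%). AKT1 gave 9.76, 9.61 and 9.58 (mean 9.65 ± 0.09 SD, n = 3). PIK3CG, the blood cell isoform of PI3K, gave 9.66, 9.97 and 10.01 (mean 9.88 ± 0.19 SD, n = 3). PIK3CA gave 5.71, 6.38 and 6.37 (mean 6.15 ± 0.39 SD, n = 3) and was lower on Untreated 1 than on the others, and DUSP6, a feedback phosphatase of ERK, gave 7.22, 7.72 and 6.97 (mean 7.30 ± 0.38 SD, n = 3), high on Untreated 2 and low on Untreated 3. AKT2, BRAF, PIK3CD and NF1 were indeterminate.

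Of 38 TGF-beta, BMP and Notch genes 22 were expressed (57.9%). SMAD6, an inhibitory SMAD, gave 11.00, 10.95 and 11.09 (mean 11.01 ± 0.07 SD, n = 3), and ACVR1, a BMP receptor, gave 10.80, 10.77 and 10.76 (mean 10.78 ± 0.02 SD, n = 3). The TGF-beta receptor was seen in part, since TGFBR2 gave 9.29, 9.34 and 9.33 (mean 9.32 ± 0.03 SD, n = 3) while TGFBR1 and TGFBR3 were not detected and the ligand TGFB1 was indeterminate. NOTCH1 gave 9.33, 9.04 and 9.28 (mean 9.21 ± 0.15 SD, n = 3) and the Notch target HES1 gave 7.75, 7.70 and 7.42 (mean 7.62 ± 0.17 SD, n = 3). Of the Notch ligands DLL1 and DLL4 were not detected and JAG1 was indeterminate.

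Among 37 chemokines, cytokines and growth factors 13 were expressed (35.1%, beside 44.8% of all genes) and 20 were not detected. MIF, a cytokine made by most cells, gave 12.34, 12.37 and 12.36 (mean 12.36 ± 0.02 SD, n = 3). CCL2, which attracts monocytes, gave 11.40, 11.28 and 11.29 (mean 11.32 ± 0.07 SD, n = 3). CCL5, a chemokine that platelets store, gave 11.07, 10.96 and 11.09 (mean 11.04 ± 0.07 SD, n = 3) on both of its probes. Some cytokines that promote or restrain inflammation were expressed before any treatment. IL10, an anti-inflammatory cytokine, gave 10.41, 10.25 and 10.50 (mean 10.38 ± 0.13 SD, n = 3). TNF gave 8.86, 8.96 and 8.98 and IL1B gave 8.73, 8.68 and 8.54. CXCL10, an interferon-induced chemokine, gave 8.31, 8.54 and 8.18 (mean 8.34 ± 0.18 SD, n = 3). IL6, CSF2, CSF3 and the hormones THPO, KITLG and EPO were not detected.

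Among the metabolic genes, isoenzymes of the same reaction differed in their calls. Of 47 glucose transport and glycolysis genes 29 were expressed (61.7%), 6 were indeterminate and 12 were not detected, and at each step from hexokinase to lactate dehydrogenase at least 1 isoform was on. SLC2A3, the high-affinity glucose transporter GLUT3, gave 13.50, 13.51 and 13.58 (mean 13.53 ± 0.04 SD, n = 3), and SLC2A1, the widespread GLUT1, gave 9.28, 9.17 and 9.38 (mean 9.28 ± 0.11 SD, n = 3). SLC2A14, a close copy of SLC2A3 whose probe may also bind SLC2A3 RNA, gave 5.88 ± 0.24. The liver and beta cell transporter SLC2A2 was not detected, and the insulin-regulated SLC2A4 was indeterminate. SLC2A5, a fructose transporter, gave 9.18, 9.05 and 8.78.

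Hexokinase 1 was on, with HK1 at 12.90, 12.82 and 12.82 (mean 12.85 ± 0.04 SD, n = 3), and HK2 at 7.21, 7.21 and 7.20 (mean 7.21 ± 0.01 SD, n = 3) was also expressed on both probes. HK3 was not detected. All 3 phosphofructokinase genes were expressed, PFKP at 10.02 ± 0.11, PFKL at 8.11 ± 0.09 and PFKM at 7.37 ± 0.08 (mean ± SD, n = 3). PKM, the pyruvate kinase of most tissues, gave 9.90, 9.72 and 9.66 (mean 9.76 ± 0.13 SD, n = 3) on all 3 probes, whereas PKLR, that of liver and red cells, was not detected on 5. Lactate dehydrogenase came from both main genes, LDHA at 12.69, 13.02 and 12.80 and LDHB at 12.80, 12.94 and 12.85, and the testis gene LDHC was not detected. Of the lactate carriers SLC16A3 (MCT4) gave 11.57, 11.47 and 11.49 (mean 11.51 ± 0.05 SD, n = 3), while SLC16A1 (MCT1) gave 4.42, 4.44 and 4.40 and was not detected on 1 probe named only by the deposited file.

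The routes out of and beside glycolysis followed the same lines. All but 1 of 25 tricarboxylic acid cycle genes were expressed (96.0%), the exception being OGDH, which was indeterminate on 3 probes with 5.73, 5.15 and 5.20. MDH2, the mitochondrial malate dehydrogenase, gave 13.25, 13.14 and 13.25 (mean 13.21 ± 0.06 SD, n = 3), and CS, which encodes citrate synthase, gave 11.42, 11.44 and 11.40 (mean 11.42 ± 0.02 SD, n = 3). Of 25 pentose phosphate and glycogen genes 18 were expressed (72.0%). Among them TALDO1, a transaldolase, gave 12.28, 12.17 and 12.07 (mean 12.17 ± 0.11 SD, n = 3). Of the gluconeogenic genes named here only PCK2 was expressed. PCK2, the mitochondrial PEP carboxykinase, gave 10.40, 10.58 and 10.44 (mean 10.47 ± 0.10 SD, n = 3) on all 3 probes, while its cytosolic form PCK1, the fructose bisphosphatases FBP1 and FBP2 and the pyruvate carboxylase gene PC were not detected. Of 20 liver and kidney enzymes only CYP2E1 was expressed, at 8.26, 8.21 and 8.39 (mean 8.29 ± 0.09 SD, n = 3).

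Amino acid and folate genes were expressed in 33 of 44 cases (75.0%). The serine pathway was complete, as PHGDH, its entry enzyme, gave 13.54, 13.56 and 13.62 (mean 13.57 ± 0.04 SD, n = 3). PSAT1, the next enzyme, gave 10.98, 11.09 and 10.95 (mean 11.01 ± 0.08 SD, n = 3). PSPH, the last enzyme, gave 7.76, 7.71 and 7.72 (mean 7.73 ± 0.02 SD, n = 3). SHMT2 and MTHFD2, which pass serine carbon to folate in mitochondria, gave 11.31 ± 0.05 and 11.92 ± 0.05 (mean ± SD, n = 3). ASNS, the asparagine synthetase, gave 11.70, 11.64 and 11.70 (mean 11.68 ± 0.04 SD, n = 3), and the paired amino acid carrier SLC7A5 and SLC3A2 gave 12.64 ± 0.08 and 10.64 ± 0.07. Of the genes of arginine synthesis, ASS1, the argininosuccinate synthetase, was not detected on 3 probes at 4.73, 4.88 and 4.60. Its highest score, 0.94993, lay just under the threshold. ASL was indeterminate and OTC was not detected. ARG1, the arginase that breaks arginine down, was not detected either. The carrier of arginine SLC7A1 gave 11.45, 11.33 and 11.44 (mean 11.41 ± 0.07 SD, n = 3). GLUL and SLC7A11, the cystine carrier, were indeterminate. IDO1, an interferon-induced enzyme that degrades tryptophan, gave 7.32, 7.63 and 7.85 (mean 7.60 ± 0.26 SD, n = 3), lowest on Untreated 1.

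Lipid and sterol genes were expressed in 27 of 40 cases (67.5%). FASN, the fatty acid synthase, gave 11.85, 11.59 and 11.60 (mean 11.68 ± 0.14 SD, n = 3), and SQLE, an oxygenase of cholesterol synthesis, gave 10.68, 10.65 and 10.54 (mean 10.62 ± 0.07 SD, n = 3). The carnitine transferase CPT1A was indeterminate and lay just under the threshold, with a lowest score of 0.98946, and PPARG, LPL and FABP4, genes of fat cells, were not detected.

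Haem and iron genes were expressed in 22 of 26 cases (84.6%). TFRC, the transferrin receptor, gave 12.62, 12.69 and 12.74 (mean 12.68 ± 0.06 SD, n = 3). FTL, the ferritin light chain, gave 14.20, 14.03 and 14.11 (mean 14.11 ± 0.08 SD, n = 3). SLC40A1, the iron exporter ferroportin, gave 11.56, 11.73 and 11.60 (mean 11.63 ± 0.09 SD, n = 3). Haem synthesis was on from end to end where measured, although its entry enzymes were dim, with ALAS1 at 6.03 ± 0.18 and the red cell form ALAS2 at 5.83 ± 0.10 (mean ± SD, n = 3), and FECH, the last enzyme, gave 7.20, 7.15 and 7.49 (mean 7.28 ± 0.18 SD, n = 3). CPOX was not on the array under a usable name. HMOX1 and HMOX2, which break haem down, were not detected, at 4.76, 4.60 and 4.65 and 4.51, 4.46 and 4.54, each on 1 probe.

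**Figure D5:**
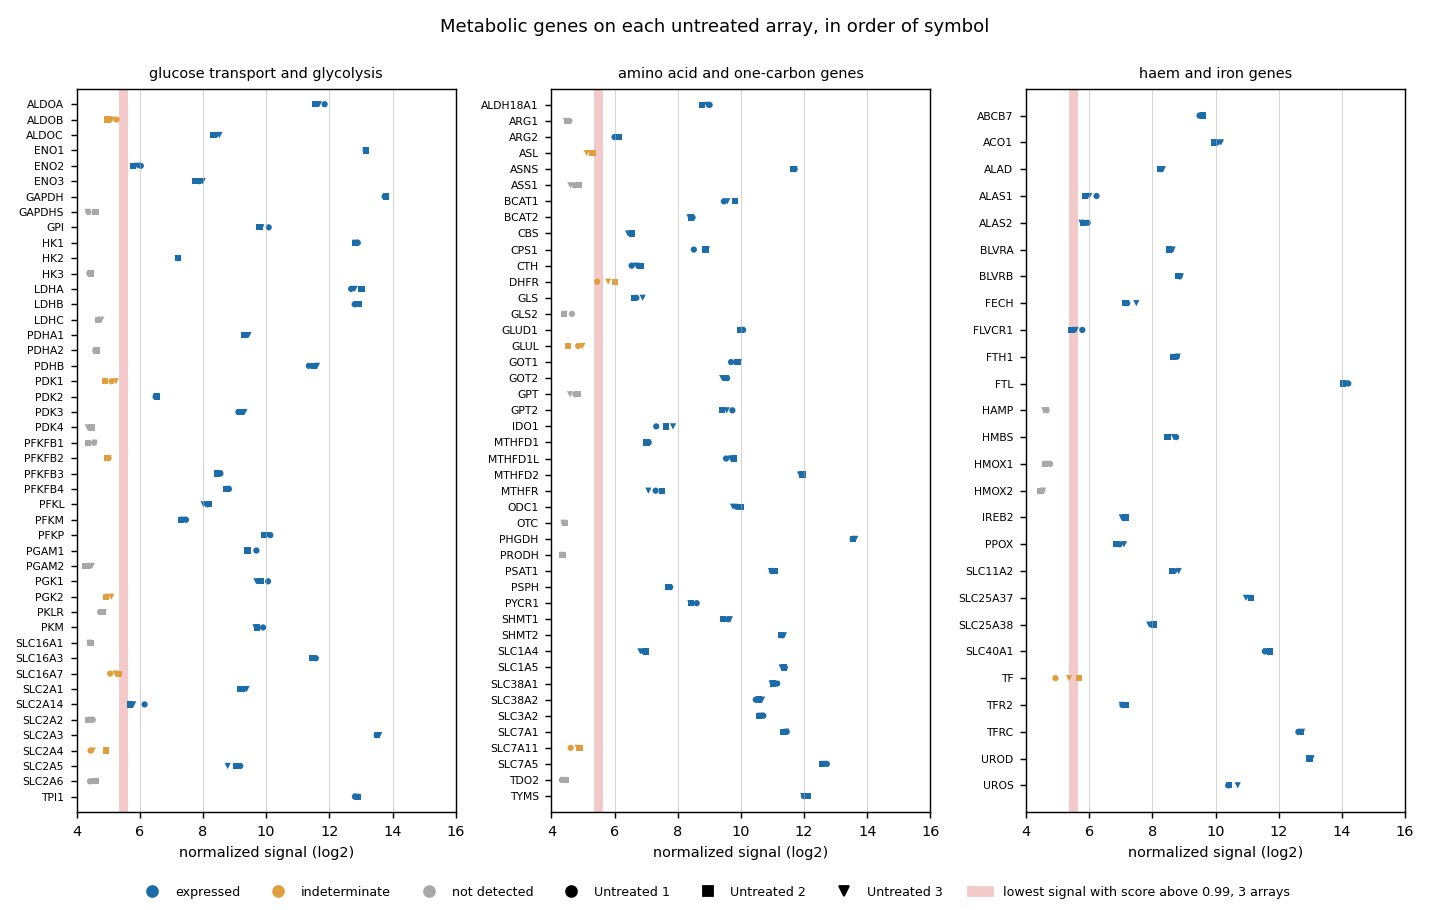
Normalized log2 signal (horizontal axes) of glucose transport and glycolysis genes, amino acid and folate genes, and haem and iron genes in alphabetical order on the 3 untreated arrays, with a few members not drawn. Symbols, colours and the band are as in the plot of megakaryocyte and platelet genes. Within enzyme families the isoforms separate, as HK1 and HK2 lie to the right of the band and HK3 to its left, and PKM to the right and PKLR to the left.

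Most cell cycle genes were on in the serum-starved cells, 38 of 45 (84.4%, beside 44.8% of all genes). CCND3, a cyclin D with a known role in megakaryocytes, gave 14.49, 14.41 and 14.62 (mean 14.51 ± 0.10 SD, n = 3) and ranked 47 among the expressed genes. CCND2 gave 11.94, 11.93 and 11.94 and CCND1 gave 6.85, 6.73 and 7.07 (mean 6.88 ± 0.17 SD, n = 3). TOP2A and CCNB2, which are made when cells divide, gave 11.60, 11.88 and 11.71 (mean 11.73 ± 0.14 SD, n = 3) and 11.77, 11.54 and 11.72 (mean 11.68 ± 0.12 SD, n = 3). MKI67, another marker of dividing cells, gave 6.41, 6.34 and 6.47 (mean 6.41 ± 0.06 SD, n = 3) on its only probe. E2F1 was not detected on its only probe at 4.48, 4.62 and 4.77, while the related E2F2 was expressed at a mean of 10.26. The inhibitors were divided. CDKN1A, a p53 target, gave 11.23, 10.88 and 11.05 (mean 11.05 ± 0.17 SD, n = 3), and CDKN1B, CDKN2C and CDKN2D were expressed too. CDKN2A was not detected on 3 probes, CDKN1C was not detected and CDKN2B was indeterminate. How serum withdrawal moved these genes cannot be told, as no array of cells in serum was analysed here.

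Survival genes were expressed in 22 of 30 cases (73.3%). BCL2L1, the survival factor of platelets, gave 13.02, 13.20 and 13 (mean 13.07 ± 0.11 SD, n = 3). BCL2, the founding member of that family, gave 8.25, 8.44 and 8.50 (mean 8.40 ± 0.13 SD, n = 3). MCL1, a short-lived relative, gave 9.25, 9.16 and 9.39 (mean 9.27 ± 0.12 SD, n = 3). Of the death genes BAX gave 9.17, 8.84 and 8.84 (mean 8.95 ± 0.19 SD, n = 3), while BAK1 was indeterminate with a lowest score of 0.98946, and BBC3, HRK and FAS were not detected.

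Stress and hypoxia genes were expressed in 31 of 36 cases (86.1%). ATF4, the factor of the amino acid and unfolded protein responses, gave 13.66, 13.55 and 13.66 (mean 13.62 ± 0.06 SD, n = 3), and its targets TRIB3 and DDIT3 gave 9.10 ± 0.11 and 8.54 ± 0.11 (mean ± SD, n = 3). DDIT4, which restrains mTOR when nutrients are short, gave 11.99, 11.94 and 11.86 (mean 11.93 ± 0.06 SD, n = 3). HIF1A was dim at 5.96, 5.93 and 5.94 (mean 5.94 ± 0.01 SD, n = 3) and EPAS1, the related oxygen-sensing factor, gave 8.20, 8.28 and 8.23 (mean 8.24 ± 0.04 SD, n = 3). Of the known targets of these factors in hypoxia, BNIP3 gave 9.97, 9.98 and 10.01 (mean 9.99 ± 0.02 SD, n = 3). VEGFA, ADM and NDRG1 gave 8.32 ± 0.24, 8.20 ± 0.07 and 7.99 ± 0.06 (mean ± SD, n = 3), whereas CA9 was not detected and EGLN3 was indeterminate. All 22 housekeeping genes were expressed. Their range ran from EEF1A1 at 15.27 ± 0.05 down to PPIA at 6.20 ± 0.08 (mean ± SD, n = 3), a gene that most cells transcribe strongly but whose only probe was dim here.

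Ribosomal protein genes took 44 of the 100 brightest places. Beside these, the top 25 began with ACTG1, a cytoplasmic actin, at 15.54, 15.51 and 15.51 (mean 15.52 ± 0.02 SD, n = 3), followed by TMSB4X, TPT1, the small RNA gene SNAR-A1 and EEF1A1. LAIR1, an inhibitory collagen receptor of white cells, came next at 15.31, 15.22 and 15.23 (mean 15.25 ± 0.05 SD, n = 3) from 1 of its 2 probes. Further down the 25 came F2R, ARHGDIB, which holds small GTPases in blood cells, the factor LYL1 and the cyclin gene CCND3. Also there were 3 interferon-induced genes, IFITM2 at 14.65 ± 0.06, IFI6 at 14.55 ± 0.03 and IFITM3 at 14.49 ± 0.05 (mean ± SD, n = 3), of which IFITM2 and IFITM3 are near-identical. The others were PFN1, TUBA1B, UBB, SNRPD2, H3-3A, TUBB, FARSB, CLUAP1, ITIH5, C19ORF31 and 2 names of pseudogenes, SLC7A5P2 and H3P6. The probes of these 2 may bind RNA of SLC7A5 and of the histone H3 genes. ITIH5 was expressed on 1 of its 5 probes, with the other 4 not detected. SNRPD2, FARSB and C19ORF31 were each expressed on 1 of 2 probes, so their places rest on a single probe.

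Few expressed genes moved between the arrays. In 5 expressed probes Untreated 1 and Untreated 2 differed by over 2-fold, against 1 probe in each of the other pairs. The 10 genes with the largest SD were AP2B1, DTX3L, HOXC9, KCNK4, OSBPL6, CD63, UCN, DDX49, TBL1XR1 and CLEC2D. AP2B1, a clathrin adaptor, gave 7.62, 7.13 and 6.45 (mean 7.07 ± 0.59 SD, n = 3), with no pair of arrays alike. DTX3L, an interferon-induced ubiquitin ligase, gave 7.88, 6.76 and 7.53 (mean 7.39 ± 0.57 SD, n = 3), and HOXC9 gave 6.54, 5.49 and 5.74 (mean 5.92 ± 0.55 SD, n = 3), highest on Untreated 1. Against the mean of the other pair, Untreated 1 was highest for HOXC9, AP2B1, CD63, KCNK4 and DTX3L and lowest for CLEC2D, MBNL3, PIK3CA, ZNF654 and STAMBPL1, which with the former make up the 10 largest differences. STAMBPL1, a deubiquitinase, gave 6.75, 7.40 and 7.41 (mean 7.19 ± 0.38 SD, n = 3), and CLEC2D, a lectin of lymphoid cells, gave 6.08, 6.79 and 6.79 (mean 6.55 ± 0.41 SD, n = 3), each with Untreated 2 and 3 alike. No expressed gene differed by over 2-fold between Untreated 1 and that mean.

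The calls at the edge of the rule are a matter of 1 step in the score. Just inside the expressed class lay FLVCR1, SMAD2 and TLR4, each with a lowest score of 0.99078, and just outside it lay BAK1, CELSR1 and CPT1A with 0.98946. Their mean signals, from 5.52 to 5.87, overlapped. At the lower threshold ADRA2A and SLC7A11 at 0.95257 were among the nearest indeterminate members, and ASS1, IL15RA and SPRY4 at 0.94993 the nearest not detected ones. Of 282 expressed list genes with several probes, 131 also had a probe that was not detected, so an absent signal from 1 probe says little about the gene. The call of CCNE2, DVL1, INVS, TMSB4X, TSC2 and VASP changes if probes named only by the deposited file are left out. Over all lists 990 of 993 genes were on the array, of which 599 were expressed, 153 were indeterminate and 238 were not detected. For 79 of them the name rests on the deposited file alone, CD33, SLC16A1 and SLC16A3 among them.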

How the data were processed

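Expression was measured once per sample on Illumina BeadChips, and only the 3 untreated samples were used. The authors deposited, per the file headers, a non-normalized intensity for each probe on each array, with no statement on background treatment before export. The detection score deposited beside it is a fraction from 0 to 1 that rises with the signal, so 1 minus the score was taken as the detection p. The authors also deposited a table of normalized log2 values, used only as an alternative. Per the submitters' processing notes lumi was used, with no role given. The version of lumi and the annotation used are not given in the sources used here.

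Signals were background-corrected with nec in limma 3.58.1 (R 4.3.3), which infers the negative controls from the detection p, with an offset of 16, then quantile-normalized over the 3 arrays and put on the log2 scale. The steps were checked on simulated data. Probes were named by the platform annotation, updated through RefSeq (27578 probes), or else by the symbol in the deposited file (4087). The 13 probes with several symbols named no gene, and 17125 probes, 698 of them expressed, had no usable name. A gene's value is that of its brightest expressed probe, or of its brightest probe where none was expressed, and its percentile is taken among all 48803 probes. Genes were named in the text by list membership (the defining or best known, brightest, dimmest expressed and missing members), among the 25 brightest outside ribosomal proteins, among the 10 with the largest SD and the 10 farthest apart in Untreated 1, and nearest to a threshold. The cells, members and gene lists were chosen with earlier results of these data known. Some list members are counted in their lists and not reported by name here. No test was made. Alternatives were other thresholds, gene rules, background corrections, normalizations and name sources, and each array left out. As the series names the arrays biological replicates without saying how they were grown, the spread given may be partly technical.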

Additional observations from a re-analysis of the deposited data

How the results depend on the processing

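No paired analysis was possible because no groups were compared and no test was made. The calls come from the deposited scores and do not depend on the normalization. With a score of 0.95 for expressed and 0.99 for not detected, 15526 probes and 10703 genes were expressed, and with stricter scores for each call 9776 probes and 7644 genes. Leaving out an array gave 12358 to 13044 expressed probes and 9197 to 9596 expressed genes, and the platform's names alone gave 8492 genes, an alternative chosen after seeing the data. Of 252 list counts recomputed under the alternatives, 236 stayed within 1.5 times the count in the report and 16 did not. Under the looser score the expressed Frizzled receptors numbered 5, Wnt co-receptors and regulators 7, secreted Wnt inhibitors and agonists 2 and liver and kidney enzymes 4. Under the stricter score Wnt ligands numbered 1 and co-receptors and regulators 2. If every probe of a gene had to be expressed, the genes numbered 6755 in all, and by list 7 for granulocytes and monocytes, 11 for stem cells, 2 for Wnt co-receptors, 13 for the destruction complex, 10 for cytokine receptors, 3 for growth factor receptors, 18 for RAS, MAPK and PI3K, 11 for TGF-beta, BMP and Notch, 17 for lipids and 9 for survival. The rule itself makes these fewer. The median percentile of the list genes was 82.2 among all probes and 66.75 among expressed probes, and 82.23 to 82.3 with an array left out. The median SD between arrays of 0.099 became 0.0778 without background correction, 0.0846 with an offset of 50, 0.1626 with median scaling, 0.1807 with no normalization, 0.0559 in the authors' value table, 0.0861 in the brighter part of the expressed probes and 0.0732 to 0.0917 with an array left out. The cause was not tested. Probes near the negative controls limit what can be called absent: 7160 indeterminate probes were never above 0.99, and 707 probes missed the expressed class on Untreated 1 alone.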

Other observations

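The gene lists in these paragraphs were chosen after the brightest genes had been seen, and their counts are descriptions. Interferon-induced genes and their regulators were on in the untreated cells: 38 of 41 were expressed (92.7%, beside 44.8% of all genes), 0 were indeterminate and 3 were not detected. ISG15, a ubiquitin-like protein made on interferon signals, gave 12.62, 12.77 and 12.31 on the log2 scale on Untreated 1, 2 and 3. IFI27 gave 13.29, 13.41 and 13.37, IFIT1, a sensor of foreign RNA, gave 10.89, 11.19 and 10.93, and RSAD2, the antiviral enzyme viperin, gave 10.65, 10.91 and 10.71. The factors STAT2 and IRF9, which work in the complex that type I interferon activates, and IRF7 were all expressed, with IRF9 at 11.17 ± 0.02 (SD, n = 3). Of the ligands IFNB1 was expressed near the detection limit at 5.76, 6.18 and 6.02, and IFNG and IFNA1 were not detected.

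Antigen presentation genes were expressed in 21 of 25 cases (84.0%). The peptide transporter TAP1 gave 13.56, 13.58 and 13.59. Class II genes ranged widely. HLA-DMA gave 12.01, 11.92 and 11.98, HLA-DPB1, HLA-DMB and HLA-DOB were expressed at means of 6.43, 6.40 and 5.95, HLA-DQA1 was indeterminate, and HLA-DQB1 and HLA-DOA were not detected. CIITA, the factor known to switch class II genes on, was indeterminate at 4.73, 5.14 and 4.61 on its only probe. HLA genes are alike in sequence and vary between people, so their probes may bind several of them or miss an allele.

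Of 39 HOX genes, which keep position and lineage, 17 were expressed (43.6%), close to the 44.8% of all genes. Most of these were in the B cluster, where 9 of 10 genes on the array were expressed. In the other clusters 3 of 11 HOXA, 3 of 9 HOXC and 2 of 9 HOXD genes were expressed. HOXB5 gave 11.63, 11.86 and 11.78, and HOXB2 gave 11.22, 11.14 and 11.34. HOXB3, HOXB9 and HOXB1 were dim, at means of 6.62, 6.46 and 6.14. Of 26 integrin genes 13 were expressed (50%). The partners that bind ligands with ITGB1 were expressed for ITGA5 (9.63 ± 0.11 SD, n = 3), ITGA3 (7.32 ± 0.09), ITGA11 (7.04 ± 0.19) and ITGAV (6.41 ± 0.28), indeterminate for ITGA2, ITGA4, ITGA6 and ITGA9, and not detected for ITGA1, ITGA7, ITGA8 and ITGA10.

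Symbol families with at least 20 named genes numbered 95. Of 50 genes with symbols in MRPL and 29 in MRPS, which encode mitochondrial ribosomal proteins, 49 and 28 were expressed. At the other end were olfactory receptors (3 of 388), keratin-associated proteins (1 of 81), keratins (1 of 57), matrix metalloproteinases (1 of 25) and taste receptors (0 of 27).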
